A study of Mus musculus with 6 samples.

Results

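The Iroquois homeobox family of the mouse has 6 genes, Irx1 to Irx6, and all 6 were found by symbol among the 23284 genes of the deposited expression table. RNA-seq was made from ventricles of E9.5 embryos obtained by tetraploid complementation, in which injected ES cells form the embryo and the tetraploid host forms extraembryonic tissue. The WT group (3 samples) came from wild type C57BL/6 ES cells. The KD group (3 samples) came from C57BL/6 ES cells with the genotype Tbx5ua -/-, which the paper names as C57BL/6 J-derived. In the KD cells, tandem bovine growth hormone polyadenylation signals in the second exon of both alleles stop transcription of the lncRNA Tbx5ua early. Both groups are therefore chimeras, and differ by label in the Tbx5ua genotype alone. The study derived KD embryos from more than one ES cell line, and which line gave the sequenced embryos is not given in the sources used here. The comparison of KD with WT asks which genes differ in the ventricle when Tbx5ua is knocked down, and it is read here for the Irx genes. Tbx5ua itself is not analysed here.

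Irx proteins are transcription factors of the TALE homeobox class, whose homeodomain carries a short extra loop, and they also share a motif near the C-terminus called the Iro box. The mammalian genes lie in 2 clusters that arose by duplication, IrxA with Irx1, Irx2 and Irx4 and IrxB with Irx3, Irx5 and Irx6, so that each gene has a counterpart in the other cluster: Irx1 with Irx3, Irx2 with Irx5, and Irx4 with Irx6. In the heart the family is known for ventricular identity and for electrical patterning. Irx4 marks the ventricular myocardium, Irx3 acts in the trabecules and the ventricular conduction system, and Irx5 sets the gradient of repolarizing potassium current across the ventricular wall.

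The table holds 1 FPKM value per group (fragments per kilobase of transcript, scaled to the mapped fragments of the library), which corrects for transcript length and was made by Cuffdiff from the 3 embryos together. It holds no value for a single embryo. No SD can therefore be given, no test was run here, and a difference between the groups cannot be set against the spread between embryos. The depth of each library is unknown. Fold changes are given as log2((KD + 0.1)/(WT + 0.1)) of the FPKM values, and a gene is counted as higher or lower when it passes 1.5-fold. The background is the 11606 genes with at least 1 FPKM in either group, which all 6 Irx genes reached, and their median log2 fold change was 0.00 with quartiles of -0.15 and 0.16.

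The likeness of the 6 genes is shown by 60 bases that encode the end of the homeodomain, including the helix that contacts DNA, since it bears on how well short reads separate the genes. The stretches were read from GENCODE M21 transcripts (GRCm38) and lie in a coding exon of each gene: chr8:92359750-92359809 (plus strand) for Irx5, chr13:72630787-72630846 (plus) for Irx2, chr8:91800502-91800561 (minus) for Irx3, chr13:71959998-71960057 (minus) for Irx1, chr8:92677359-92677418 (plus) for Irx6 and chr13:73267646-73267705 (plus) for Irx4. They are written 5′ to 3′ on the strand of the gene, counterparts one after the other, and capitals mark bases that differ from Irx5.
Irx5: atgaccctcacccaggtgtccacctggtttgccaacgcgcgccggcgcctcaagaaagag
Irx2: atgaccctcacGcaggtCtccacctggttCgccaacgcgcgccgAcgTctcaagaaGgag
Irx3: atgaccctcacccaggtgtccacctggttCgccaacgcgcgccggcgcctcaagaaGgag
Irx1: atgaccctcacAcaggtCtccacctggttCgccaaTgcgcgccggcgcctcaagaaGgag
Irx6: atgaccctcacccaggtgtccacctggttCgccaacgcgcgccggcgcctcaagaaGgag
Irx4: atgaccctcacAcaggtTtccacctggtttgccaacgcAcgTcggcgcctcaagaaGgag

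Irx3 and Irx6 differed from Irx5 at 2 of these 60 bases, Irx1 and Irx4 at 5 and Irx2 at 6. Over the whole homeobox of 189 bases the 15 pairs of members were 83.1% to 91.0% identical. The most alike pair by bases was Irx2 and Irx5, which encode the same homeodomain (100% of residues), and Irx1 and Irx3 shared 98.4% of residues. The longest stretch without a difference between 2 transcripts was 88 bases, for Irx3 and Irx6, and is not wholly inside the homeobox. It was followed by 65 bases for Irx2 and Irx5, inside the homeobox, and the other pairs had 50 bases or fewer. The 2 longest stretches are 3.20% of the Irx3 transcript and 2.61% of the Irx6 transcript, and 2.48% of Irx2 and 2.55% of Irx5. Reads that fall inside them cannot be assigned to 1 gene of the pair. The read length is not given in the sources used here.

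The IrxB genes Irx5 and Irx6 were about 2-fold higher in KD ventricles, Irx3 of the same cluster lay just short of 1.5-fold, and the IrxA genes lay further inside that limit. Irx5 and Irx6 passed 1.5-fold, so 2 of 6 members were counted as higher, beside 4.48% of the background genes. None of the 6 was counted as lower, beside 3.10% of the background genes. Irx5 and Irx6 also passed 2-fold, as 1.43% of the background genes did, but not with a pseudocount of 1, at which their log2 fold changes were 0.93 and 0.87. The median log2 fold change of the 3 IrxB genes was 1.02 and that of the 3 IrxA genes 0.04.

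**Figure D1:**
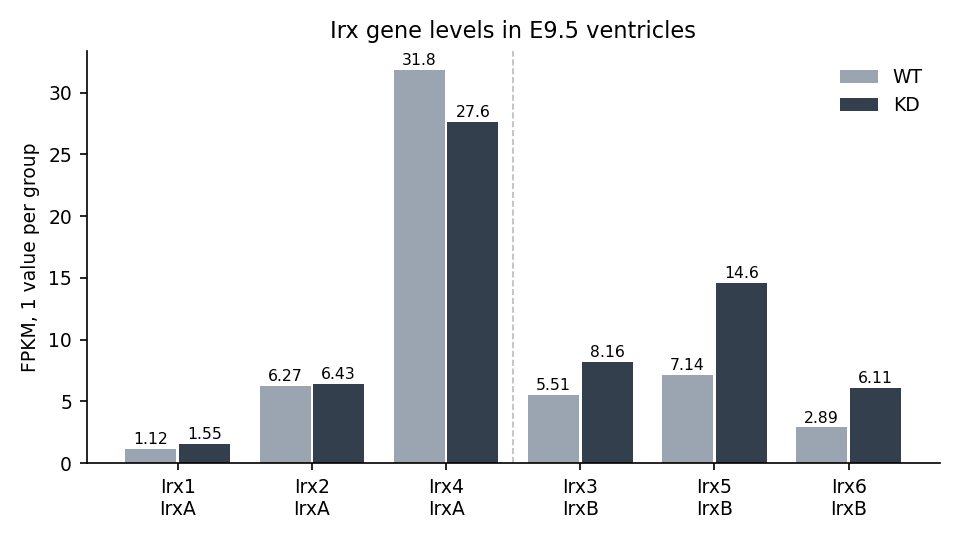
Bars give the FPKM of each Irx gene, 1 value per group (WT grey, KD dark), with the IrxA genes left of the dashed line and the IrxB genes right of it. No error bars are drawn, since only group values were deposited. Irx5 stands at 7.14 in WT and 14.6 in KD, whereas Irx4 stands at 31.8 and 27.6.

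Irx5 lies on chromosome 8 from 92357796 to 92361456, on the plus strand (ENSMUSG00000031737). Gene coordinates are in mm10, from the deposited table for the members and from GENCODE for the antisense and lncRNA genes, and the Ensembl identifiers are those of GENCODE. It had 7.14 FPKM in WT and 14.6 in KD, a plain ratio of 2.04 and a log2 fold change of 1.02. Its gain of 7.42 FPKM was larger than that of any other member. Only 157 of the 11606 background genes (1.35%) had a larger fold change. Low genes scatter more in fold change, and among genes with a mean of 5 to 20 FPKM, the range in which Irx5 lies, 2.48% were counted as higher.

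Irx6, on chromosome 8 from 92674402 to 92680080 (plus strand, ENSMUSG00000031738), is the member least known in the heart. Its level was 2.89 FPKM in WT and 6.11 in KD, a log2 fold change of 1.05, the largest of the family. It was exceeded in fold change by 146 genes (1.26%). With a mean of 4.50 FPKM it belongs to the genes under 5 FPKM, of which 9.84% were counted as higher, a larger share past 1.5-fold than in the range of Irx5. Shares past 2-fold were not taken by level.

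Irx3, on chromosome 8 from 91798511 to 91801654 (minus strand, ENSMUSG00000031734), had 5.51 FPKM in WT and 8.16 in KD. Its log2 fold change of 0.56 fell just short of the limit of 0.58 and was exceeded by 573 genes (4.94%). GENCODE places the antisense RNA Irx3os across part of Irx3, from 91800415 to 91807539 on the plus strand. Irx3os is not analysed here. The Smart-Seq2 libraries do not mark the strand, and reads from the 2 transcripts cannot be told apart where they overlap.

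Irx4 had the highest level of the family in both groups, 31.8 FPKM in WT and 27.6 in KD, and lies on chromosome 13 from 73260497 to 73269620 (plus strand, ENSMUSG00000021604). Its log2 fold change was -0.21, the only one of the family below 0, and 2065 genes (17.8%) lay lower. Among genes with a mean of 20 FPKM or more, 1.24% were counted as lower, and Irx4 was not one of them. Irx4 alone stood for 58.1% of the summed FPKM of the family in WT and 42.8% in KD.

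Irx2 (chromosome 13 from 72628978 to 72634194, plus strand, ENSMUSG00000001504) was nearly level, with 6.27 FPKM in WT and 6.43 in KD and a log2 fold change of 0.04. Irx1 (chromosome 13 from 71958232 to 71963723, minus strand, ENSMUSG00000060969) was the lowest member, with 1.12 FPKM in WT and 1.55 in KD. Its log2 fold change of 0.43 rests on a difference of 0.423 FPKM, and 917 genes (7.90%) had a larger one. Both genes are known from the trabecules and the ventricular septum.

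In WT the order of levels was Irx4, Irx5, Irx2, Irx3, Irx6 and Irx1. In KD Irx3 stood above Irx2 and the order was otherwise the same. Whether neighbours in this order differ beyond the spread between embryos cannot be said. The IrxB genes summed to 15.5 FPKM in WT and 28.8 in KD (ratio 1.86), and the IrxA genes to 39.2 and 35.5 FPKM (ratio 0.906). The IrxB share of the family sum was 28.4% in WT and 44.8% in KD. The whole family summed to 54.8 FPKM in WT and 64.4 in KD.

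The counterparts across the clusters were set side by side. The Irx2 level was 0.878 times that of Irx5 in WT and 0.442 times in KD. Irx4 had 11.0 times the level of Irx6 in WT and 4.51 times in KD. Irx1 and Irx3 kept nearly the same ratio, 0.204 in WT and 0.189 in KD, and their log2 fold changes differed by 0.13. For Irx2 and Irx5 that difference was 0.98, and for Irx4 and Irx6 it was 1.26.

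**Figure D2:**
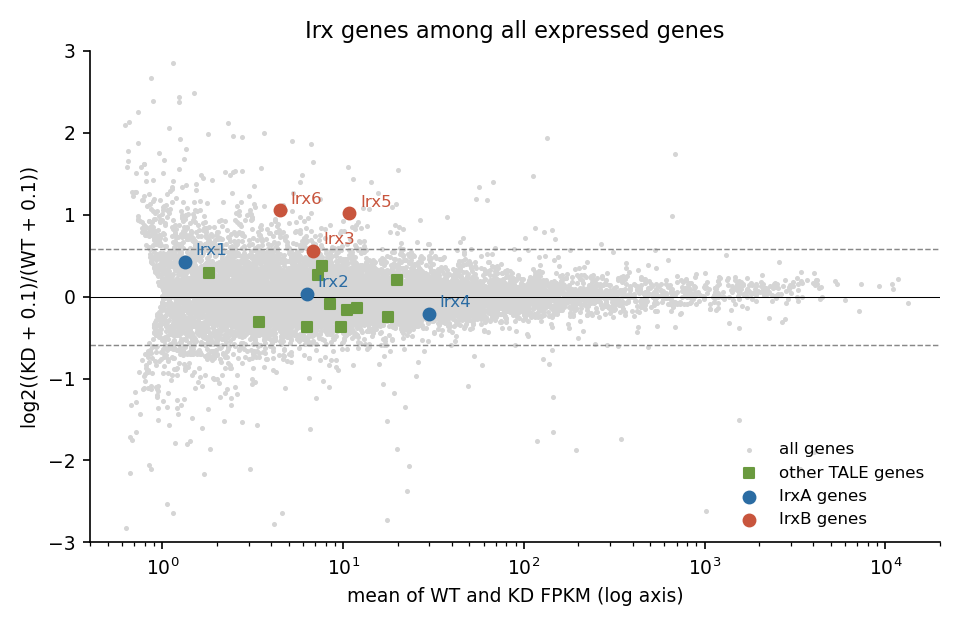
Each grey point is a gene with at least 1 FPKM in either group, by its mean FPKM (log axis) and its log2((KD + 0.1)/(WT + 0.1)), and dashed lines mark 1.5-fold. 65 genes lie outside the axes. Irx5 and Irx6 lie above the upper line and Irx3 just under it, while the IrxA genes and the other TALE genes (squares) lie between the lines.

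The other genes of the TALE class were read beside the Irx family. They comprise the Meis, Pbx, Pknox and Tgif genes, cofactors and repressors that often bind DNA with other homeodomain proteins, and Mkx, the closest relative of Irx. Of 12 genes 11 reached 1 FPKM in either group, and 0 of the 11 passed 1.5-fold in either direction, near the 7.58% of the background genes for a list of this size. Their log2 fold changes ran from -0.37 to 0.37 with a median of -0.14. The highest in WT were Tgif2, with 19.3 FPKM in WT and 16.2 in KD, and Meis1, with 18.5 and 21.3 FPKM.

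The genes that flank the clusters were read beside the Irx genes. Within 1 Mb of an Irx gene the table lists 40 other genes, of which 17 reached 1 FPKM in either group. None of the 17 passed 1.5-fold, which in a list of this size is near the 7.58% of the background genes, and their log2 fold changes ran from -0.44 to 0.40. The 7 beside IrxB had a median of -0.02 and a range from -0.38 to 0.25. Fto, whose introns hold long-range enhancers of Irx3 and Irx5, lies 130 kb from Irx3 and had 26.1 FPKM in WT and 26.2 in KD. Mmp2, which encodes a matrix metalloproteinase 147 kb beyond Irx6, had 18.1 FPKM in WT and 17.9 in KD. The 10 beside IrxA had a median of -0.13. Among them Ndufs6, a gene of respiratory complex I 50.3 kb from Irx4, had 839 and 855 FPKM.

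**Figure D3:**
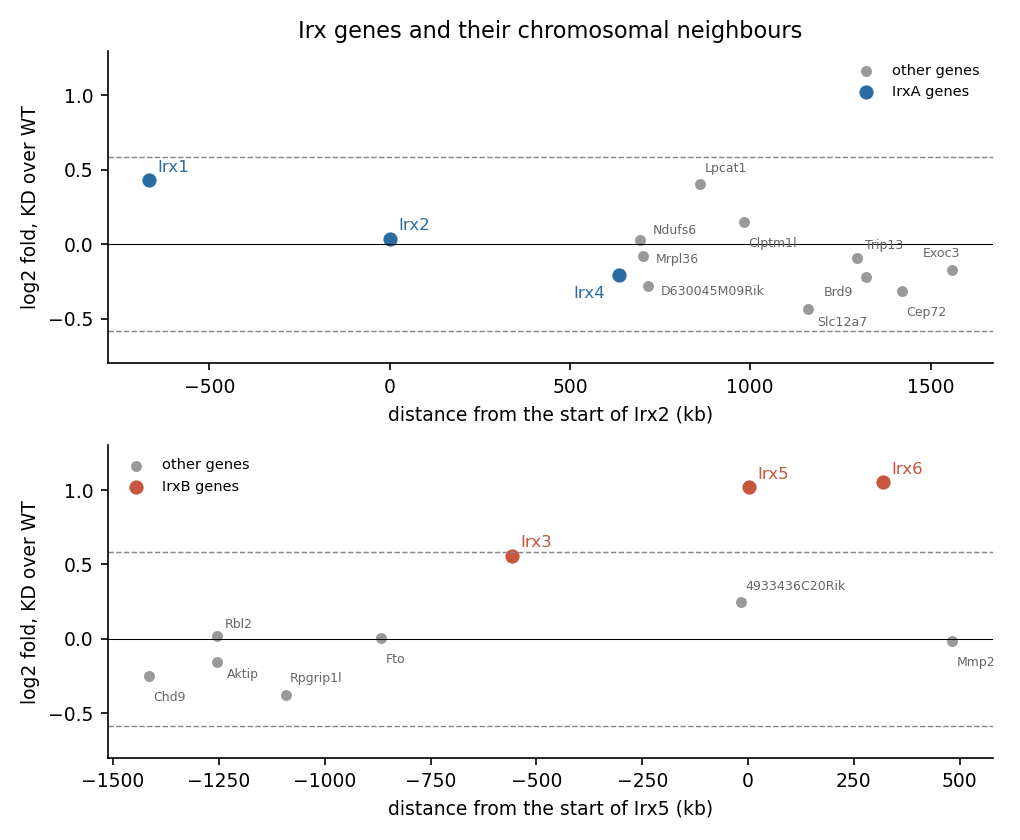
Log2 fold change (KD over WT) of the Irx genes and of the other genes within 1 Mb that reached 1 FPKM in either group, by distance in kb from the start of Irx2 (IrxA, top) or Irx5 (IrxB, bottom); dashed lines mark 1.5-fold. The 17 other genes lie between -0.44 and 0.40.

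The study is about lncRNAs transcribed away from the start of a transcription factor gene. Of the Irx family its text names Irx3 and Irx5 as genes with such a lncRNA. In the table used here 2 Irx genes, Irx5 and Irx2, have such a neighbour. The lncRNA beside Irx5, 4933436C20Rik (Crnde in RefSeq), lies on chromosome 8 from 92326033 to 92356120 on the minus strand, 1676 bases from Irx5 by the start the table gives for Irx5. It had 6.17 FPKM in WT and 7.33 in KD, a log2 fold change of 0.25, against 1.02 for Irx5. The lncRNA beside Irx2, Gm20554, is on the minus strand, 414 bases from Irx2 in the table, and in GENCODE the 2 starts lie 256 bases apart. It had 0.254 FPKM in WT and 0.637 in KD, below the minimum of 1 FPKM.

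The bases just before the start of Irx2 are shown because they separate this divergent pair. RefSeq promoter windows of 300 bases (GRCm38.p6, 250 before and 50 after the start) were matched by symbol for 3 of the 6 members, Irx2, Irx3 and Irx4, and were not found for Irx1, Irx5 and Irx6. The 250 bases at chr13:72628570-72628819 are written 5′ to 3′ on the plus strand, towards Irx2, and capitals mark CG dinucleotides.
Irx2: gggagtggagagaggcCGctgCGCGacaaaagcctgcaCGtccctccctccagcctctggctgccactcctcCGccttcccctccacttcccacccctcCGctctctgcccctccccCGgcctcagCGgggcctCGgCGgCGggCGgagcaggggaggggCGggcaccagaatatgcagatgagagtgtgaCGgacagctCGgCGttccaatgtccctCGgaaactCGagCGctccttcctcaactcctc

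This stretch holds 19 CG dinucleotides and is 68.4% G or C. The full windows of Irx2, Irx4 and Irx3 were 69.0%, 70.7% and 56.0% G or C and held 25, 31 and 14 CG dinucleotides, where the medians over all 32851 windows were 52.7% and 7. The windows were searched on both strands for the Iroquois site ACANNTGT, for the T-box site AGGTGTGA, for AGATAA as the site of zinc finger factors such as Gata4, for CAAGTG as the site of Nkx2-5, for the TATA box TATAAA, and for the E-box CANNTG, which is contained in the first motif. The E-box letters occurred once in Irx2 and once in Irx4 and in 72.3% of all windows. The letters of the other 5 motifs were not in the 3 windows. They occur in 7.38%, 1.28%, 11.2%, 13.6% and 13.6% of all windows, in the order given.

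Transcription factors that act upstream of or together with Irx genes in the heart comprise T-box, GATA, Hand and other factors. Of 13 such genes 0 passed 1.5-fold, which in a list of this size is near the 7.58% of the background genes, with log2 fold changes from -0.37 to 0.27 and a median of 0.08. The highest in WT were Id2, an inhibitor of bHLH factors, with 332 FPKM in WT and 351 in KD, and Nkx2-5, an early cardiac homeobox gene, with 224 and 247 FPKM. Tbx5, the gene beside which Tbx5ua starts, had 17.2 FPKM in WT and 15.7 in KD.

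Of 12 genes known to be regulated by an Irx protein 9 reached 1 FPKM in either group, and 1 of the 9 passed 1.5-fold, a share near the 7.58% of the background genes. Gja5, which encodes the connexin of trabecules and fast-conducting myocardium and is known to depend on Irx3, had 7.02 FPKM in WT and 12.1 in KD, a log2 fold change of 0.78. The other 8 lay between -0.25 and 0.29. Gja1, a connexin gene that Irx3 represses, had 37.5 FPKM in WT and 45.9 in KD. The myosin genes Myh7 and Myh6 were the highest of the list, with 470 and 500 FPKM for Myh7 and 284 and 239 FPKM for Myh6. Kcnd2, the potassium channel gene that Irx5 represses in the adult ventricle, was low in both groups, with 0.0387 FPKM in WT and 0.113 in KD.

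Of 8 genes of the ventricular chamber and its compact and trabecular layers, 0 passed 1.5-fold, again near the 7.58% of the background genes, and their median log2 fold change was 0.18. The ventricular myosin light chain genes Myl2 and Myl3 had 10924 and 3955 FPKM in WT and 12702 and 4407 FPKM in KD.

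Markers of other cell types were read beside the IrxB genes, because in bulk RNA more cells of a type and more RNA per cell cannot be told apart. The 6 cardiomyocyte markers, checked for the label of heart ventricle, were all present and summed to 11132 FPKM in WT and 10841 in KD with log2 fold changes from -0.14 to -0.03. Endocardial markers, which mark the layer in which Irx5 is known to be expressed, summed to 118 FPKM in WT and 128 in KD, and 0 of 6 passed 1.5-fold, near the 7.58% of the background genes for a list of this size. Erythroid markers summed to 11448 and 11525 FPKM, with 0 of 6 past 1.5-fold, near the same share. Epicardial markers moved with the IrxB genes. Of the 5 markers with at least 1 FPKM in both groups 4 were counted as higher, and all 5 have means of 5 to 20 FPKM, a range in which 2.48% of the background genes were counted as higher. The other marker, Aldh1a2, with 0.872 FPKM in WT and 1.74 in KD, reached 1 FPKM through KD alone and is left out of this count. The list summed to 47.0 FPKM in WT and 95.9 in KD, and the lowest log2 fold change was 0.48, for Wt1. The highest in KD, Tcf21, had 11.9 FPKM in WT and 25.5 in KD. Atrial markers were lower in level. Nr2f2 had 2.01 FPKM in WT and 4.15 in KD, while Nr2f1, with 0.552 and 1.07 FPKM, and Vsnl1, with 0.555 and 1.14 FPKM, reached 1 FPKM through KD alone, so no count is read from this list. It had sums of 3.12 and 6.36 FPKM, while Sln was listed at 0 in both groups. The part of epicardial or atrial cells in the higher IrxB levels was not tested.

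Irx genes are also expressed in neural tube and foregut. Neural markers summed to 0.282 FPKM in WT and 0.229 in KD, with 3 of 6 listed at 0 in both groups. Of the 6 foregut markers only Sox17, which endothelium also expresses, reached 1 FPKM, with 3.26 FPKM in WT and 3.24 in KD. Second heart field and neural crest markers summed to 5.42 and 4.21 FPKM. Of the 2 expressed ones 1, Fgf8, was counted as lower, beside 3.10% of the background genes. Fgf8 had 2.45 FPKM in WT and 1.41 in KD, and the share lower among genes under 5 FPKM was not taken. Prrx1 of the same list, under 1 FPKM, had 0.324 FPKM in WT and 0.623 in KD. Hepatic and yolk sac markers summed to 0.607 and 1.37 FPKM, with 0 of 5 at 1 FPKM in either group.

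**Figure D4:**
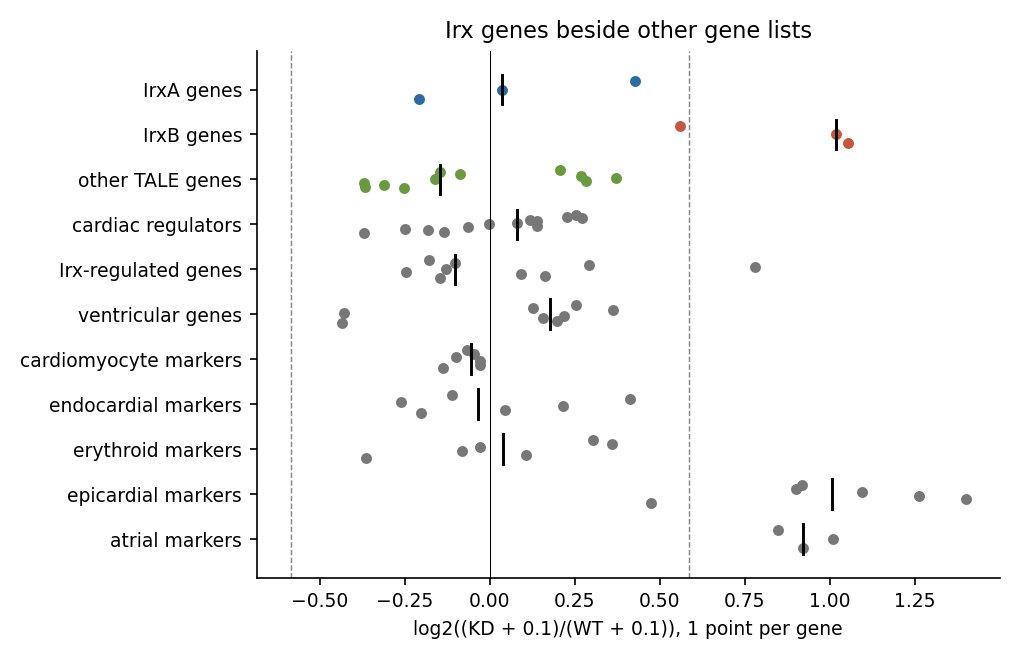
Each point is the log2((KD + 0.1)/(WT + 0.1)) of 1 gene with at least 1 FPKM in either group, black bars are medians of each list, and dashed lines mark 1.5-fold. The IrxB genes and the epicardial markers lie to the right, as do the atrial markers, and of these Aldh1a2, Nr2f1 and Vsnl1 passed the minimum through KD alone. The other lists drawn have medians from -0.14 to 0.18. Lists with fewer than 3 genes at 1 FPKM are not drawn.

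The genes most like each member were taken as those nearest in the plane of log2(FPKM + 0.1) in WT and KD. This likeness rests on 2 group values, so it describes level and fold change only. Nearest to Irx5 were Rarres2, with 6.91 FPKM in WT and 13.9 in KD (distance 0.083), and LOC100504703 (distance 0.16). Nearest to Irx6 were Snord15a (distance 0.059) and Sost (0.11), and nearest to Irx3 were 2310047M10Rik (0.066) and Aacs (0.067). The IrxA genes lie where genes are denser. Plekhg3 and Gpt were nearest to Irx1, Fam126a and Pacrgl to Irx2, and Mad2l1bp and Tardbp to Irx4, at distances from 0.013 to 0.035.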

How the data were processed

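The authors prepared Smart-Seq2 libraries from 10 ng of total RNA, with 12 cycles of preamplification and 9 of enrichment PCR. The submitters' processing notes name TopHat, Bowtie2, Cuffdiff and mm10; versions and annotation are not given in the sources used here. The authors deposited 1 Cuffdiff table with an FPKM value per group, the KD group as KO. Its columns of fold change, test statistic, p-value, q-value and significance hold the authors' own comparison and were not used; 0 columns of single samples were left unused. Values as small as 1.05e-06 FPKM are fractional estimates, so whole reads could not be recovered. Table starts count from 0 and are given with 1 added.

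Genes were counted as higher or lower at 1.5-fold on the scale of log2(FPKM + 0.1) among genes with at least 1 FPKM in either group, the minimum the study used to select lncRNA candidates in other libraries and applied here by choice; no test was run. The members and gene lists were chosen with earlier results of these data known. Named genes were all members, neighbours within 1 Mb and genes of the lists other than cell type markers that passed both the minimum and 1.5-fold, the 2 highest genes in WT of each of those lists, and the 2 genes nearest to each member; Fto, Mmp2, Ndufs6, Tbx5, Gja1, Kcnd2 and the markers named were chosen after their values were seen. Homeobox identity was computed from GENCODE transcripts and their translation. Alternatives were other pseudocounts, scalings, folds, minima and a narrower window. Scripts (Python 3.11.15, NumPy 2.4.6, pandas 2.3.3, Matplotlib 3.10.9) were tested on simulated data.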

Additional observations from a re-analysis of the deposited data

How the results depend on the processing

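No paired analysis was possible because each group is given as 1 pooled FPKM value, and leaving out each replicate was not run for the same reason. The values cannot be set against a spread between embryos, and with the depth unknown no precision can be given for genes near 1 FPKM, Irx1 among them. Without such a spread, any change at 2 decimals is given here. With a pseudocount of 1 the log2 fold changes of Irx1, Irx2, Irx3, Irx4, Irx5 and Irx6 were 0.26, 0.03, 0.49, -0.20, 0.93 and 0.87. With no pseudocount those of Irx1, Irx3, Irx5 and Irx6 were 0.46, 0.57, 1.03 and 1.08. Less the median of all genes, those of Irx1, Irx2, Irx3 and Irx5 were 0.42, 0.03, 0.55 and 1.01, and with upper quartile scaling those of Irx4 and Irx6 were -0.20 and 1.06. Each kept its sign under these 4 settings. The count of members higher, 2, became 4 at a lower limit of 0.32 on the log2 scale. There 12.1% of the background genes were counted as higher. With no pseudocount no counts were taken. Under the other settings in which members were counted, 2 were higher. The share of all genes higher ran from 1.43% at a fold of 2 to 9.39% with no minimum level. With a minimum of 5 FPKM the 2 were of 5 members, beside 2.09% of genes. The count of members lower was 0 under every setting in which it was taken. The share of all genes lower ran from 1.06% at a fold of 2 to 9.34% at the limit of 0.32. For 6 genes or fewer a count of 0 is near these shares. At that lower limit the count in either direction was 3 for the other TALE genes, 1 for the cardiac regulators, 3 for the ventricular genes and 3 for the neighbours, beside 21.5% of the background genes. At a fold of 2 the count of genes listed as regulated by or linked to an Irx protein was 0 of 9. This is near the 2.49% of the background genes for a list of this size. With no minimum level the count for that list was 2 of 12, beside 16.2% of all genes above 0. Beside the same share, it was 1 of 12 for the other TALE genes and 1 of 2 for the neighbouring lncRNAs. For the neighbours it was 6 of 30 (3 higher and 3 lower). Of 81 values under the alternatives 55 were as in the report by these rules.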

Other observations

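Genes near the Irx clusters that stayed under 1 FPKM in both groups, named here after their values were seen, were left out of the counts. Nkd2, an antagonist of Wnt signalling 550 kb from Irx4, had 0.878 FPKM in WT and 0.322 in KD. Slc6a3, the dopamine transporter gene 267 kb from Irx4, had 0.00475 FPKM in WT and 0.136 in KD. Lpcat2, 175 kb from Irx6, had 0.160 and 0.304 FPKM. Ahrr, the repressor of the aryl hydrocarbon receptor, had 0.218 FPKM in WT and 0.112 in KD, and the carboxylesterase gene Ces1e had 0.0851 and 0.00536 FPKM. With Gm20554 these are the 6 neighbours past 1.5-fold under that minimum, 3 higher and 3 lower. Mkx, the closest relative of the Irx genes, had 0.0651 FPKM in WT and 0.185 in KD. No spread between embryos is known for these values.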
